A study of Mus musculus with 9 samples.

Results

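Transcripts of 10 genes of Wnt signalling were followed in cultured mouse valvular interstitial cells, the fibroblast-like cells of the heart valve leaflets. The genes were taken from a fixed list of symbols and cover 2 ligands (Wnt5a and Wnt5b), 2 Frizzled receptors (Fzd1 and Fzd2), 4 secreted proteins of the SFRP and Dickkopf families (Sfrp1, Sfrp2, Dkk2 and Dkk3), beta-catenin itself (Ctnnb1) and the beta-catenin target Axin2. All 10 were present among the 51810 genes of the table, and all 10 passed the low-level filter (mean over the libraries of 1 TPM or more) that left 13495 genes for testing. TPM expresses each gene as its part of a library's transcripts after correction for gene length, so levels of different genes can be compared within a library.

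C57BL/6J mice with no named genetic change gave the cells, taken from both the aortic and the mitral valve, and nothing in the labels says how many animals or cultures they came from. All groups grew in medium with 10% serum, insulin, EGF and basic FGF. Control cells received buffer (one label calls them untreated), LDL cells native low-density lipoprotein at 50 ug/mL, and oxLDL cells oxidised low-density lipoprotein at 50 ug/mL, each for 24 h. Every group had 3 samples, and because separate cultures are not stated, p-values here reflect sample-to-sample spread alone, and that spread may be technical.

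A Wnt protein binds a Frizzled receptor on the cell surface. With an LRP5 or LRP6 co-receptor, this halts a destruction complex of Axin, Apc and GSK3 that otherwise marks beta-catenin for degradation, and stabilised beta-catenin then switches on target genes with TCF and LEF factors in the nucleus. Other Wnt proteins act through Frizzled or ROR receptors on cell shape and calcium without beta-catenin. The pathway takes part in forming the valves from the endocardial cushions and has been linked to calcific valve disease. Beta-catenin is controlled mainly through the stability of its protein, so its transcript level is not a measure of pathway activity.

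All 10 valve fibroblast markers were above 0 in all 9 libraries and summed to 11775 to 14219 TPM, of which Vim made up 37.9 to 51.9%. Being above 0 does not by itself identify the cells, since it held for markers of other cell types as well. Markers of other cell types were found at lower sums. The 8 endothelial markers summed to 127 to 326 TPM and the 8 macrophage and leukocyte markers to 102 to 742 TPM, with all of them above 0 in every library. Both sums overlapped between treatments but differed by the replicate number in the sample titles. They are given below beside some of the 10 genes. Lyz2 made up 69.6 to 76.7% of the macrophage and leukocyte sum. The 6 smooth muscle and pericyte markers summed to 91.3 to 161.75 TPM and were above 0 in every library. Smtn made up 42.7 to 74.8% of that sum and Rgs5 7.21 to 48.6%. Myh11 (0.38 to 0.71 TPM), Des (0.22 to 0.77 TPM) and Cnn1 (0.6 to 2.18 TPM) were low. The 6 cardiomyocyte markers summed to 9.8 to 63.85 TPM, of which Tnnt2 made up 85.7 to 98.7%, and only 2 of them were above 0 in every library. In bulk RNA, fewer cells of a type and less RNA per cell cannot be told apart. TPM keeps no depth, so how many reads stand behind each value is unknown. Samples sharing a replicate number departed from their group means together, with correlations of 0.172 to 0.497 across genes in 9 pairs, against -0.309 to 0.13 in the 18 pairs with different numbers.

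None of the 10 genes passed the threshold of an adjusted p under 0.05 in limma in any comparison, in either direction, with or without the replicate number as a block. The background was small, with 0.333% of all genes called for LDL against Control (0.178% higher, 0.156% lower). It was 0.0148% for oxLDL against Control, all of them higher, and 0.104% for oxLDL against LDL (0.0371% higher, 0.0667% lower). With the block these shares were 0.852%, 0.126% and 0.259%. At an unadjusted p under 0.05, 1 of the 10 genes qualified in each comparison. Fzd2 was that gene in both comparisons with Control, and Fzd1 between oxLDL and LDL, where the same rule took 6.65%, 3.86% and 3.91% of all genes. With the block this rule took 2, 1 and 1 of the 10 genes (Fzd2 and Sfrp2, Fzd2, and Ctnnb1), against 13.1%, 9.08% and 8.51% of all genes. The median log2 difference of the 10 genes was 0.06, 0.00 and -0.06 in the same order, against 0.00 in each comparison over all genes tested. Log2 differences were taken after adding 1 to each TPM, so those of low genes come out smaller than the ratio of their TPM.

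**Figure D1:**
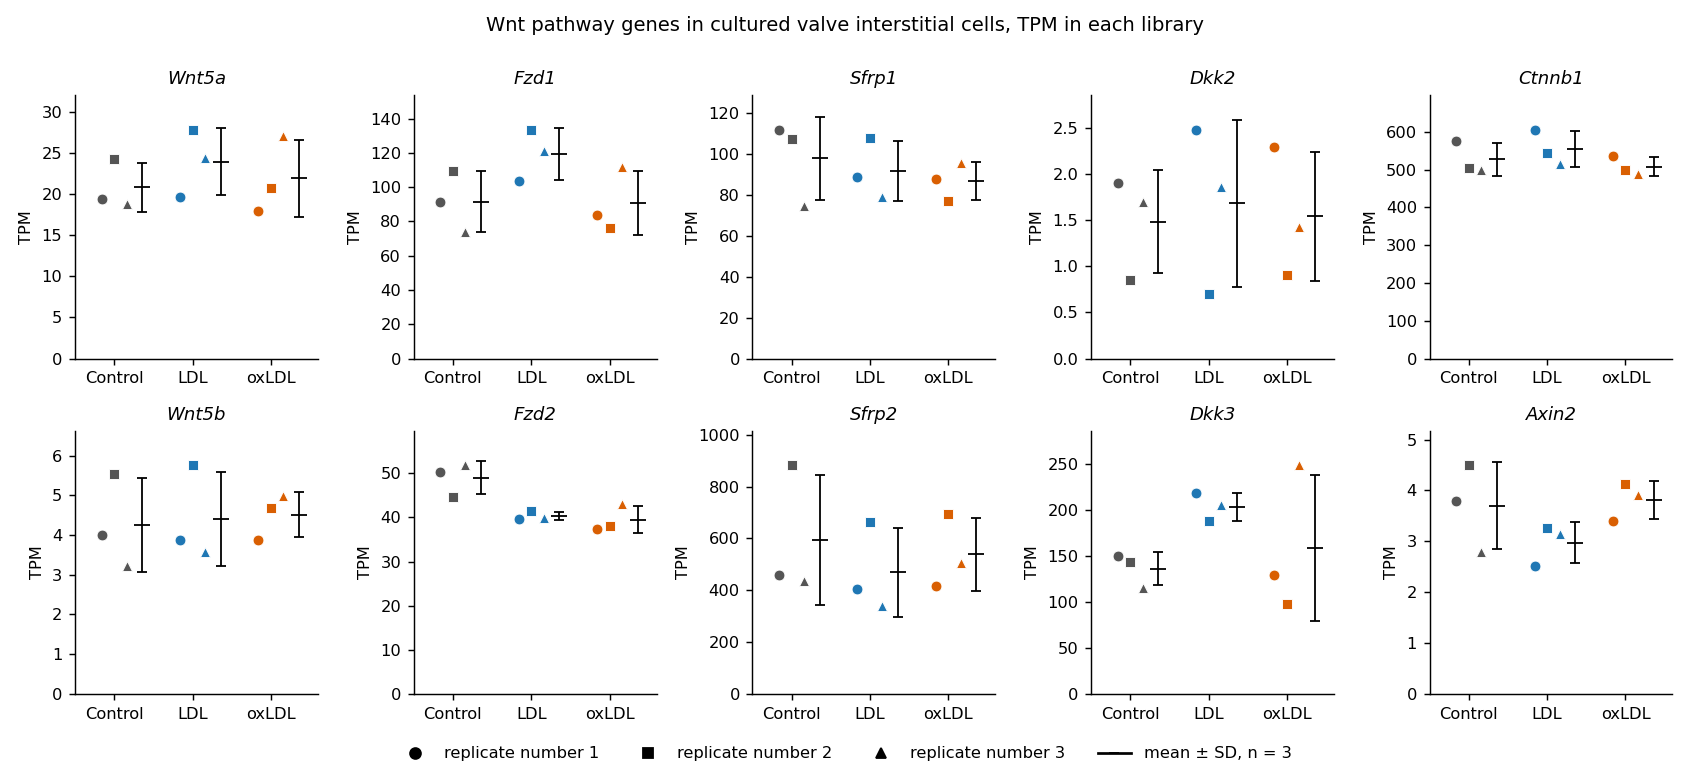
TPM of the 10 genes in each of the 9 libraries (vertical axes from 0), by treatment, with the replicate number as the symbol and the mean ± SD of n = 3 as a bar beside the points. The 3 Control points of Fzd2 (44.7 to 51.9 TPM) lie above all LDL and oxLDL points (37.4 to 43 TPM), while the points of the other genes overlap between treatments except for Dkk3 in LDL against Control and Axin2 in oxLDL against LDL.

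The 10 genes spanned a wide range of levels that kept nearly the same order in all libraries. Sfrp2 and Ctnnb1 were the most abundant, with means of 534 and 530 TPM over the 9 libraries. Sfrp2 was above Ctnnb1 in 4 of the 9, so this pair had no fixed order. Dkk3 (166 TPM) came next in every library, then Fzd1 (100.5 TPM) and Sfrp1 (92.2 TPM), with Fzd1 above Sfrp1 in 5 of the 9. Fzd2 (42.9 TPM), Wnt5a (22.2 TPM), Wnt5b (4.39 TPM), Axin2 (3.5 TPM) and Dkk2 (1.57 TPM) followed in the same order in all 9 libraries. The secreted antagonist Sfrp2 thus stood above 98% of the genes tested, and Axin2 and Dkk2 above 16.7% and 5.74% of them.

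Promoter sequence was looked at for the beta-catenin target and for the 2 genes whose only window in the table held the TCF/LEF core. RefSeq promoter windows (GRCm38.p6, the build named mm10 in the submitters' processing notes) run from 250 bases before to 50 after a transcript start, and 6 of the 10 genes matched by symbol, with 9 windows (Wnt5a, Sfrp1, Dkk3 and Fzd2 did not match). Below are the 250 bases before the start of Axin2 (chr11:108920099-108920348, plus strand), Dkk2 (chr3:132085042-132085291, plus strand) and Fzd1 (chr5:4758217-4758466, minus strand), written 5′ to 3′ on the gene's own strand. Capitals mark the motif letters CTTTGA or CTTTGT, searched on both strands, so that TCAAAG is CTTTGA on the other strand.
Axin2: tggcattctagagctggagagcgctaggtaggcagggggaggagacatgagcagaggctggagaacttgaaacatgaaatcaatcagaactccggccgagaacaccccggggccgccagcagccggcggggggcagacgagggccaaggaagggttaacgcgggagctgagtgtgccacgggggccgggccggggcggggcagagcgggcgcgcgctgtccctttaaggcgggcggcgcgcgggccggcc
Dkk2: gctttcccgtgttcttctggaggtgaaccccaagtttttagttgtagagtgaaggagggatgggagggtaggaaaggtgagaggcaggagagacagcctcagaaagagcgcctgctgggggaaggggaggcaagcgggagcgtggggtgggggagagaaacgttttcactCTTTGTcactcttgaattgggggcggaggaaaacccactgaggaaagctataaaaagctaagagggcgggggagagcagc
Fzd1: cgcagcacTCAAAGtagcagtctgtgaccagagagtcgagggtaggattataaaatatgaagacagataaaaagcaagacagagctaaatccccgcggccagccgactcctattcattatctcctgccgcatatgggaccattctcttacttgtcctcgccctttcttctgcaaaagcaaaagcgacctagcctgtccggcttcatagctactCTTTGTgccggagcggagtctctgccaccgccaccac
The Axin2 window held neither motif, Dkk2 held CTTTGT starting 80 bases before the start site, and Fzd1 held CTTTGA on the other strand and CTTTGT, starting 242 and 37 bases before it. One of the Wnt5b windows held CTTTGA 71 bases before its start, and the Sfrp2 and Ctnnb1 windows held neither. Of all 32851 windows of this length in the table, 31.2% held at least 1 of these motifs. The match is a description of these letters and not a binding site.

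Among the ligands, Wnt5a and Wnt5b are best known for signalling without beta-catenin in cell polarity and movement. Wnt5a (chr14:28504750-28527448, GRCm38, plus strand) was at 19.4, 24.2 and 18.8 TPM in Control 1 to 3, at 19.6, 27.8 and 24.3 TPM with LDL and at 17.9, 20.8 and 27.1 TPM with oxLDL. The 3 groups overlapped. The log2 difference was 0.19 for LDL against Control (95% CI -0.20 to 0.58, adjusted p = 0.999), 0.06 for oxLDL against Control (95% CI -0.33 to 0.45, adjusted p = 1) and -0.13 for oxLDL against LDL (95% CI -0.52 to 0.27, adjusted p = 1).

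Wnt5b (chr6:119432531-119544347, minus strand) was lower, at 4.01, 5.53 and 3.21 TPM in Control, 3.87, 5.76 and 3.57 TPM with LDL, and 3.88, 4.67 and 4.97 TPM with oxLDL. Its groups overlapped too, with log2 differences of 0.04, 0.09 and 0.04 in the 3 comparisons (95% CI -0.41 to 0.50, -0.37 to 0.54 and -0.41 to 0.50). The libraries do not mark strand, and Fbxl14, an F-box gene on the opposite strand within the span of Wnt5b, was at 25.7 to 30.9 TPM. Reads from a stretch in exons of both genes could not be told apart. Only whole gene spans were compared, and not exons, so whether this touches the low level of Wnt5b is unknown. Genes overlapping Wnt5a, Sfrp2, Axin2 and Ctnnb1 on the opposite strand were at 2.13 TPM or less.

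All 19 Wnt ligand genes were in the table, and their summed level was 47 to 73.5 TPM per library. Wnt5a made up 31.3 to 40.7% of that sum (median 37.8%) and Wnt5b 6 to 8.51% (median 7.24%). Wnt16, a ligand known from bone and skin, was the other main one at 37.1 to 46.4% (median 40.9%) and was listed at 17.4 to 32.9 TPM. Wnt11, at 1.69 to 3.95 TPM, and Wnt9a, at 1.69 to 2.81 TPM, were the next, and Wnt3a, a classic activator of beta-catenin, was listed at 0 in all 9 libraries. Only these 5 ligands reached a mean of 1 TPM, and 0 of the 5 passed in limma in any comparison (0 at an unadjusted p under 0.05). The mean share of Wnt5a in the ligand sum was 36.6% in Control, 36.6% with LDL and 37.2% with oxLDL. Wls, which carries Wnt proteins to the cell surface, was abundant at 217 to 257 TPM. Porcn, the enzyme that attaches their lipid, was at 1.03 to 1.91 TPM, and Notum, which removes that lipid, at 2.84 to 8.74 TPM. None of these 3 passed (0 at an unadjusted p under 0.05).

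**Figure D2:**
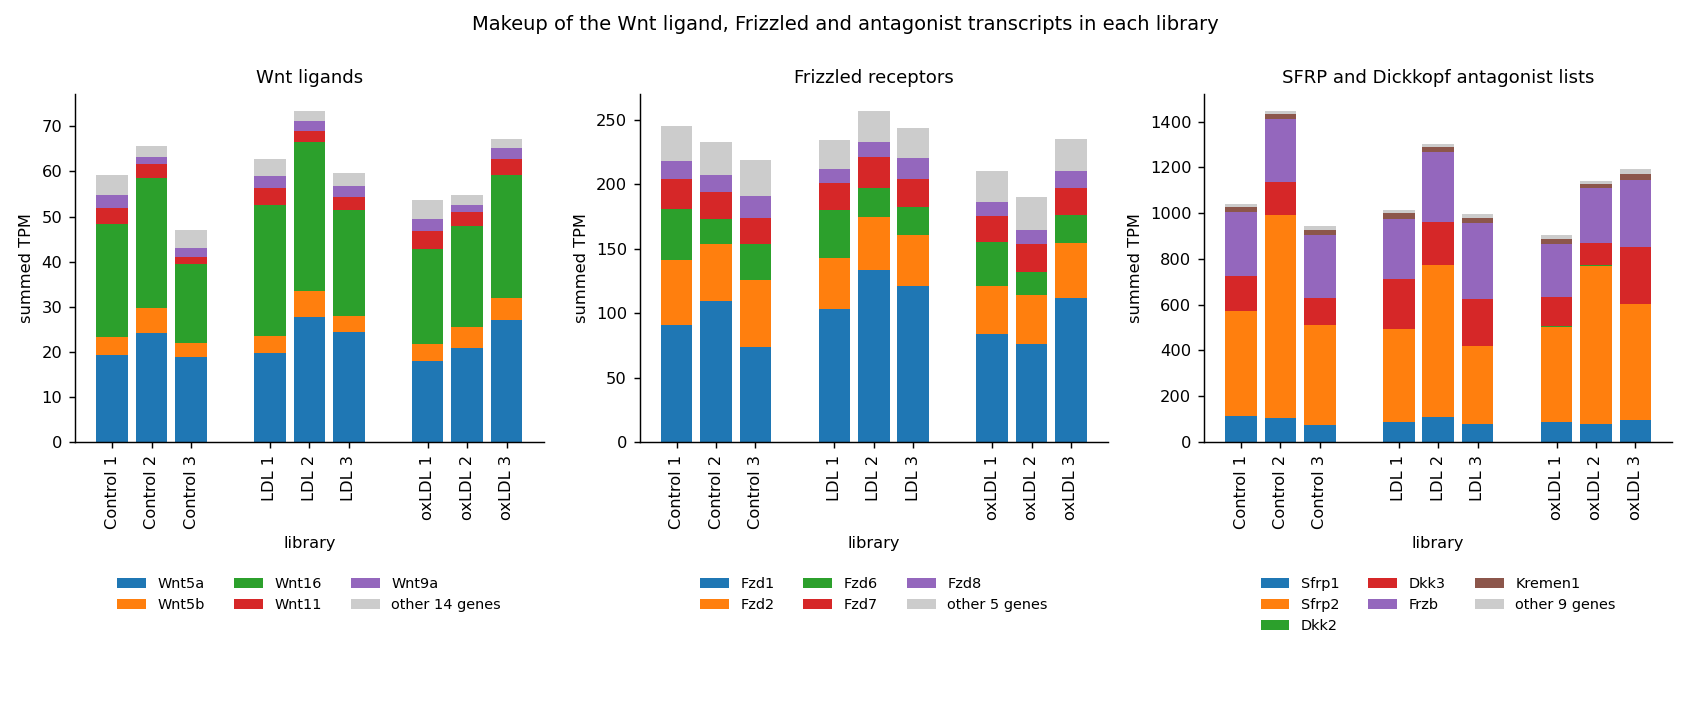
Stacked TPM (vertical axes, summed TPM from 0) of the 19 Wnt ligands, 10 Frizzled receptors and 15 genes of the SFRP and Dickkopf antagonist lists (Kremen1 and Kremen2 included) in each of the 9 libraries, with named genes in colour and the rest in grey. Wnt5a and Wnt16 dominate the ligands, Fzd1 and Fzd2 the receptors, and Sfrp2, Frzb and Dkk3 the antagonists in every library.

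Fzd2, a receptor for Wnt5a among other ligands, had the most regular difference of the 10 genes. Its level (chr11:102604396-102608058, plus strand) was 50.3, 44.7 and 51.9 TPM in Control, 39.6, 41.4 and 39.9 TPM with LDL, and 37.4, 38 and 43 TPM with oxLDL. All 3 Control samples were above all 6 samples given a lipoprotein, and the LDL and oxLDL samples overlapped. Control had a mean of 49 ± 3.76 TPM (SD, n = 3). The LDL mean of 40.3 ± 0.932 TPM (SD, n = 3) was 1.21-fold lower, and the oxLDL mean of 39.4 ± 3.08 TPM (SD, n = 3) was 1.24-fold lower. In limma the log2 difference was -0.27 for LDL (95% CI -0.45 to -0.09, unadjusted p = 0.00825, adjusted p = 0.37, and 0.148 with the block) and -0.30 for oxLDL (95% CI -0.49 to -0.12, unadjusted p = 0.00438, adjusted p = 0.821, and 0.273 with the block). Both differences thus had an unadjusted p under 0.05 in limma, and neither passed after adjustment for the number of genes tested. The 2 comparisons share the Control samples. All 3 same-numbered pairs were lower in each of them. Between oxLDL and LDL the log2 difference was -0.03 (95% CI -0.22 to 0.15).

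Fzd1 (chr5:4753839-4758035, minus strand), a receptor that can signal through beta-catenin, did not follow Fzd2. It was at 91.2, 109 and 74 TPM in Control, 104, 134 and 121 TPM with LDL, and 83.5, 76.4 and 112 TPM with oxLDL. The LDL samples were the highest as a group but overlapped the others through Control 2 and oxLDL 3. The log2 difference was 0.39 for LDL against Control (95% CI -0.01 to 0.79, adjusted p = 0.767) and -0.41 for oxLDL against LDL (95% CI -0.80 to -0.01, unadjusted p = 0.0465, adjusted p = 1), and all 3 same-numbered pairs had the sign of the mean in both. For oxLDL against Control it was -0.02 (95% CI -0.41 to 0.38), with 1 of the 3 pairs higher.

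Together the 10 Frizzled receptors summed to 190 to 257 TPM per library, of which Fzd1 made up 33.8 to 51.9% and Fzd2 16.1 to 23.7%. Mean shares of Fzd1 were 39.3% in Control, 48.6% with LDL and 42.4% with oxLDL, and those of Fzd2 were 21.1%, 16.5% and 18.7%. Fzd6 (17.8 to 39.3 TPM), Fzd7 (19.9 to 24.4 TPM) and Fzd8 (10.8 to 16.7 TPM) were the next most abundant. Of the 9 receptors tested, 0 passed. Without the block, Fzd2, Fzd2 and Fzd1 were the single genes at an unadjusted p under 0.05 in the 3 comparisons. Each was 11.1% of the 9 receptors tested, against 6.65%, 3.86% and 3.91% of all genes.

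Of the 6 co-receptors, 0 passed. Ryk was at 85.3 to 96.5 TPM and Ptk7, a polarity co-receptor, at 60.6 to 79.1 TPM. Lrp5, the co-receptor of the beta-catenin branch, was at 81.5, 75.4 and 82.6 TPM in Control, 86.8, 106 and 97.3 TPM with LDL and 74.9, 82.9 and 89.1 TPM with oxLDL. All 3 LDL samples were above all 3 Control samples (log2 difference 0.27, 95% CI 0.06 to 0.48, adjusted p = 0.512), and Lrp5 had an unadjusted p of 0.017 there and 0.0346 between oxLDL and LDL.

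**Figure D3:**
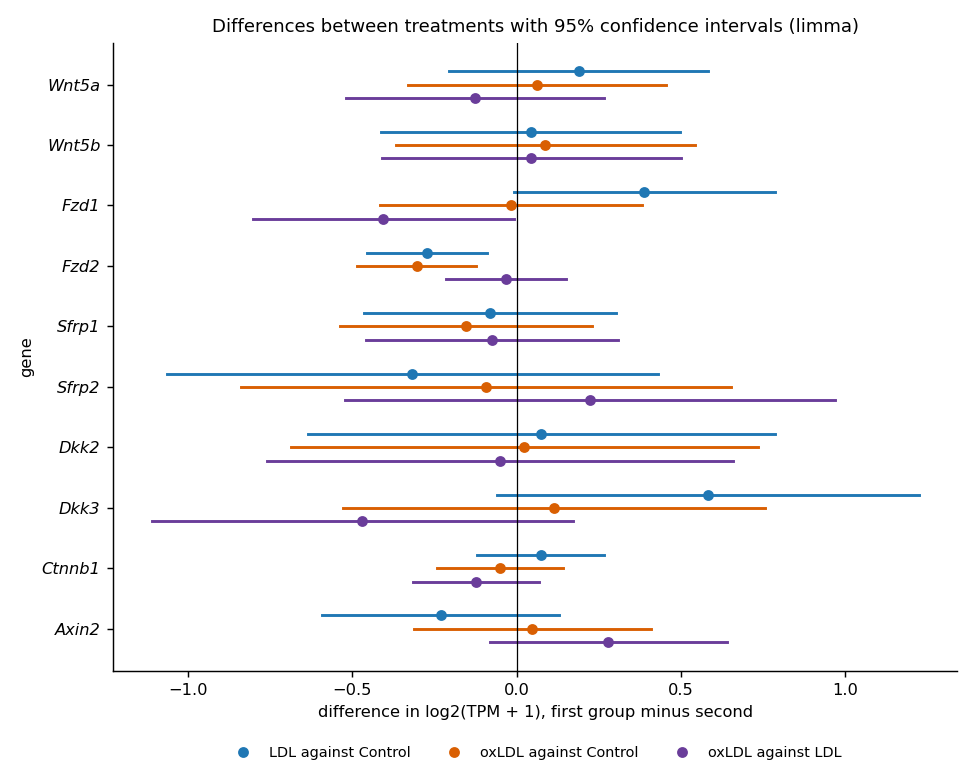
Differences in log2(TPM + 1) between treatments (horizontal axis) for the 10 genes, with 95% confidence intervals from limma, first group minus second. The intervals of Fzd2 lie below 0 in both comparisons with Control and that of Fzd1 does so between oxLDL and LDL, the others span 0, and none passed after adjustment over all genes.

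The SFRP and Dickkopf lists of antagonists, 15 genes with the membrane receptors Kremen1 and Kremen2 among them, summed to 906 to 1447 TPM, more than the ligands or the Frizzled receptors. Sfrp1 and Sfrp2 carry a Frizzled-like domain that binds Wnt proteins outside the cell. Sfrp1 (chr8:23411502-23449632, plus strand) was at 112, 107 and 74.6 TPM in Control, 88.7, 108 and 79 TPM with LDL and 87.9, 76.9 and 95.6 TPM with oxLDL. The groups overlapped, with log2 differences of -0.08 (95% CI -0.46 to 0.30), -0.15 (95% CI -0.54 to 0.23) and -0.07 (95% CI -0.46 to 0.31) in the 3 comparisons.

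Sfrp2 (chr3:83766321-83774316, plus strand) was at 459.8, 883 and 436 TPM in Control, 404, 665 and 340.1 TPM with LDL, and 416, 694 and 505 TPM with oxLDL. The sample numbered 2 was the highest of its group in all 3 treatments, and the groups overlapped. The log2 difference for LDL against Control was -0.32 (95% CI -1.06 to 0.43, adjusted p = 1), with all 3 same-numbered pairs lower. With the block its unadjusted p was 0.0242 and its adjusted p 0.284, and without Control 2 the difference was 0.01. For oxLDL against Control and against LDL the log2 differences were -0.09 (95% CI -0.84 to 0.65) and 0.22 (95% CI -0.52 to 0.97), and the former was 0.23 without Control 2.

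Sfrp2 made up 34.1 to 61% of the antagonist sum (median 45.8%). Frzb, another SFRP-type protein, made up 19.1 to 33.2% and was at 231 to 331 TPM. Sfrp4 and Wif1, also binders of Wnt proteins, were at 8.07 to 10 TPM and 3.52 to 11.5 TPM. Of the 5 genes of this list that were tested, 0 passed and 0 had an unadjusted p under 0.05 without the block.

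The Dickkopf members differed most in level. Dkk2, which binds LRP5 and LRP6, stood near the filter. It was at 1.9, 0.85 and 1.7 TPM in Control, 2.48, 0.7 and 1.86 TPM with LDL and 2.29, 0.91 and 1.42 TPM with oxLDL (chr3:132085292-132180304, plus strand). The sample numbered 2 was the lowest in all 3 treatments. Log2 differences were 0.07 (95% CI -0.64 to 0.78), 0.02 (95% CI -0.69 to 0.73) and -0.05 (95% CI -0.76 to 0.66).

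Dkk3 is a divergent member of the family whose action on Wnt signalling is less settled. It was at 149.7, 143 and 115 TPM in Control, 218, 188 and 205 TPM with LDL and 129, 97.9 and 249 TPM with oxLDL (chr7:112116017-112159057, minus strand). All LDL samples were above all Control samples, while the oxLDL samples held both the lowest and the highest value of the 9. The mean was 204 ± 15.3 TPM (SD, n = 3) with LDL against 136 ± 18.3 TPM (SD, n = 3) in Control, a 1.49-fold higher level and the largest log2 difference among the 10 genes in any comparison (0.58, 95% CI -0.06 to 1.22, unadjusted p = 0.0702, adjusted p = 0.81 in limma). With oxLDL the mean was 158 ± 79.6 TPM (SD, n = 3), and this spread entered the intervals of all 3 comparisons. For oxLDL the log2 difference was 0.11 against Control (95% CI -0.53 to 0.76) and -0.47 against LDL (95% CI -1.11 to 0.17). Without oxLDL 3 these were -0.27 and -0.85, and without oxLDL 2 they were 0.40 and -0.18. On the log2(TPM + 1) scale the 8 macrophage and leukocyte markers also had means above Control with LDL (8 of 8, median difference 0.30) and below LDL with oxLDL (8 of 8, median difference -0.31), though 0 of the 8 passed. The 3 of 6 melanocyte markers that were tested did likewise (3 of 3 with a median difference of 0.30, and 3 of 3 with one of -0.34), and 0 of the 3 passed. Means of TPM itself did not all follow. Mlana was at 1.78 TPM in Control and 1.42 TPM with LDL. Cd68 and C1qb were at 37.6 and 20.7 TPM with LDL and at 38.6 and 21 TPM with oxLDL. The other tested markers kept these directions. The leukocyte sum was 742, 231 and 591 TPM in LDL 1 to 3 and 535, 102 and 742 TPM in oxLDL 1 to 3. All 6 melanocyte markers were above 0 in every library, and they summed to 4.22 to 12.7 TPM in Control, 6.02 to 20.2 TPM with LDL and 3.3 to 15.8 TPM with oxLDL. The part of both marker lists in the differences of Dkk3, Fzd1 and Lgr6 was not tested.

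Dkk3 and Fzd2 were the 2 of 10 genes whose groups did not overlap for LDL against Control, where 10.7% of all genes had this property. Dkk3 was higher with LDL, as 5.61% of all genes were, and Fzd2 was lower, as 5.06% were. Fzd2 was the 1 for oxLDL against Control (7.33% of all genes, 3.5% higher and 3.83% lower). Axin2 was the 1 between oxLDL and LDL (8.31% of all genes, 4.11% higher and 4.2% lower). Counts of 1 or 2 among 10 genes are near these shares. Of the Dickkopf list only Dkk2, Dkk3 and Kremen1 (a co-receptor of the Dickkopf proteins, at 20.1 to 27.1 TPM) were tested, and 0 passed (0 at an unadjusted p under 0.05). Dkk1 was listed at 0.02 TPM or less, Sost at 0.16 TPM or less and Dkkl1 at 0.2 TPM or less.

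Ctnnb1 (chr9:120929216-120960507, plus strand) encodes beta-catenin, which also serves cell junctions. It was at 577, 504 and 500.4 TPM in Control, 606, 543 and 514 TPM with LDL and 537, 498 and 489 TPM with oxLDL. The groups overlapped, although within each replicate number the LDL sample was the highest and the oxLDL sample the lowest. The log2 difference was 0.07 for LDL (95% CI -0.12 to 0.27) and -0.05 for oxLDL (95% CI -0.24 to 0.14) against Control. For oxLDL against LDL it was -0.12 (95% CI -0.32 to 0.07), with an unadjusted p of 0.181 without the block, 0.0175 with it, and an adjusted p of 0.418 with it. No interval of the 3 reached beyond 0.32 in either direction.

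Axin2 (chr11:108920349-108950783, plus strand) encodes a scaffold of the destruction complex and is itself induced by beta-catenin, so that it serves as a common readout of that branch. It was at 3.8, 4.5 and 2.8 TPM in Control, 2.51, 3.27 and 3.14 TPM with LDL and 3.4, 4.13 and 3.91 TPM with oxLDL. All oxLDL samples were above all LDL samples, and Control spanned nearly the whole range. The log2 difference was -0.23 for LDL against Control (95% CI -0.59 to 0.13, adjusted p = 0.956), with 2 of 3 same-numbered pairs lower, and 0.05 for oxLDL against Control (95% CI -0.31 to 0.41, adjusted p = 1). Between oxLDL and LDL it was 0.28 (95% CI -0.08 to 0.64, unadjusted p = 0.114, adjusted p = 1, and 0.663 with the block), with all 3 pairs higher.

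Beside Axin2 the list held 15 beta-catenin targets, of which 13 were tested and 0 passed in any comparison. Their log2 differences were above 0 for 5, 7 and 8 of the 13 in the 3 comparisons, with medians of -0.08, 0.02 and 0.07 against 0.00 over all genes. Ccnd1, the cell cycle gene cyclin D1, was by far the most abundant at 236 to 433 TPM, with log2 differences of -0.09, 0.10 and 0.19. Apcdd1, a membrane inhibitor of Wnt signalling, was at 25.5 to 62.6 TPM and differed by -0.33, -0.24 and 0.09. In limma with the block its unadjusted p was 0.00826 for LDL and 0.0319 for oxLDL against Control (adjusted p = 0.181 and 0.498).

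Nkd2, a feedback inhibitor that binds Dishevelled, was the 1 target with an unadjusted p under 0.05 without the block. The share of these 13 targets at that level was 0%, 7.69% and 7.69% in the 3 comparisons. Over all genes it was 6.65%, 3.86% and 3.91%. Nkd2 was at 12.2, 13 and 11 TPM in Control, 13.2, 12.5 and 11.2 TPM with LDL, and 18, 15 and 20 TPM with oxLDL. All oxLDL samples were above the 6 others. The log2 difference was 0.51 against Control (95% CI 0.24 to 0.78, unadjusted p = 0.00192, adjusted p = 0.642) and 0.49 against LDL (95% CI 0.22 to 0.75, unadjusted p = 0.00257, adjusted p = 0.509), so neither passed in limma. These 2 comparisons share the oxLDL samples. Its paralog Nkd1 was at 7.09 to 12.8 TPM and went the other way for oxLDL against Control. Its log2 difference there was -0.30 (unadjusted p = 0.115 in limma), with all 3 same-numbered pairs lower. With the block the unadjusted p of Nkd1 was 0.00893 and its adjusted p 0.368.

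**Figure D4:**
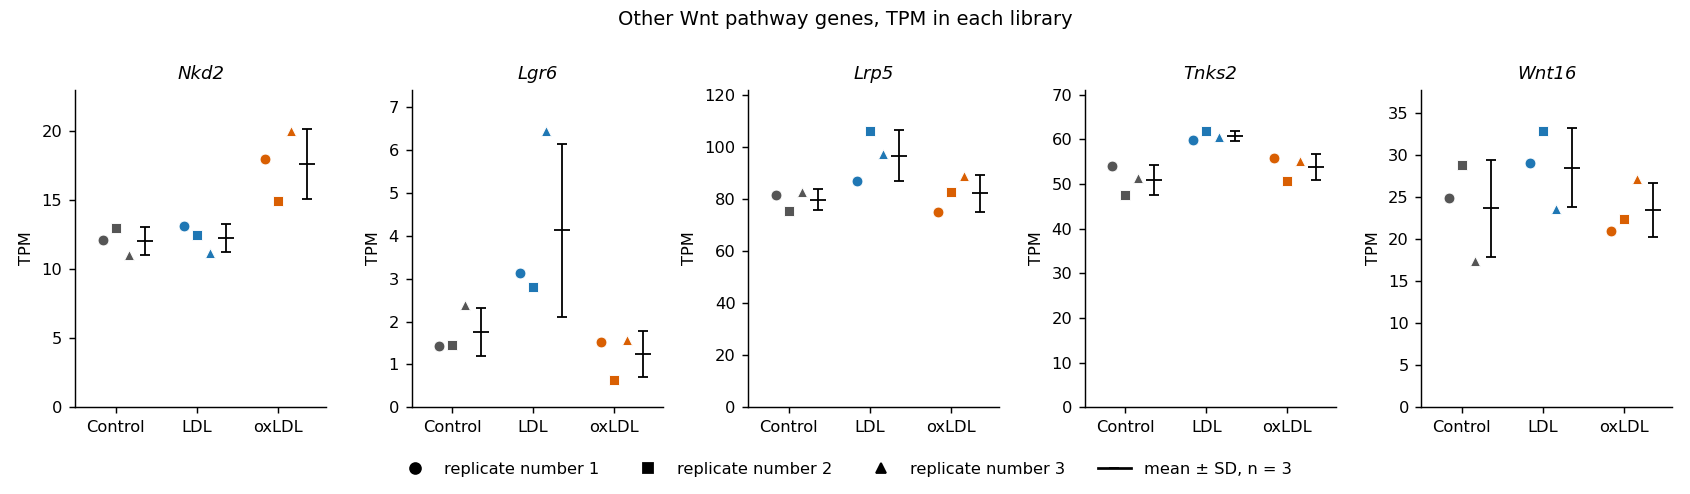
TPM (vertical axes from 0) of 5 further Wnt pathway genes in each library by treatment, with the replicate number as the symbol and the mean ± SD of n = 3 beside the points. Nkd2 is highest in the 3 oxLDL samples (15 to 20 TPM) and Lgr6 in the 3 LDL samples (2.8 to 6.44 TPM), and neither passed over all genes tested.

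R-spondins strengthen Wnt signals by binding LGR receptors and removing the ligases Znrf3 and Rnf43, which take Frizzled off the surface. Lgr6, such a receptor, had the lowest adjusted p of the pathway genes once the block was used. It was at 1.42, 1.46 and 2.39 TPM in Control, 3.14, 2.8 and 6.44 TPM with LDL and 1.52, 0.63 and 1.57 TPM with oxLDL. All LDL samples were above the 6 others, and the mean with LDL was 2.35-fold that of Control and 3.33-fold that of oxLDL. The log2 difference was 0.85 for LDL against Control (95% CI 0.18 to 1.51, adjusted p = 0.526, and 0.102 with the block) and -1.16 for oxLDL against LDL (95% CI -1.82 to -0.49, adjusted p = 0.564, and 0.0779 with the block). Lgr4 was at 5.38 to 7.53 TPM, Rspo3, the most abundant R-spondin, at 3.19 to 7.77 TPM and Znrf3 at 3.42 to 4.89 TPM. Of 5 genes of this list tested 0 passed.

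Inside the cell, 0 of 16 Dishevelled and destruction complex genes and 0 of 10 genes of beta-catenin and its nuclear partners passed. At an unadjusted p under 0.05 the former had 2, 0 and 1 genes and the latter 0 in the 3 comparisons. The former counts were 12.5%, 0% and 6.25%, against 6.65%, 3.86% and 3.91% of all genes. Csnk1a1, a kinase that starts beta-catenin phosphorylation, was at 183 to 195 TPM, Csnk1d at 88.1 to 110.5 TPM and Gsk3a, the kinase that continues it, at 80.9 to 93.4 TPM. Tnks2, a tankyrase that marks Axin for degradation, was at 54.1, 47.5 and 51.3 TPM in Control, 59.8, 61.9 and 60.6 TPM with LDL and 55.9, 50.6 and 55.1 TPM with oxLDL. All LDL samples were above the 6 others (log2 difference against Control 0.25, 95% CI 0.09 to 0.41, unadjusted p = 0.00578, adjusted p = 0.335). Dvl2, a Dishevelled protein, differed by -0.22 for LDL against Control (unadjusted p = 0.042, adjusted p = 0.698).

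Among the nuclear partners, the co-activators Bcl9l and Pygo2 were at 51.2 to 71.8 TPM and 41.8 to 49.5 TPM, and Tcf7l1, a TCF factor that mostly represses, at 25.8 to 35.6 TPM. Of 7 planar polarity genes tested 0 passed. At an unadjusted p under 0.05 there were 1, 0 and 2 (14.3%, 0% and 28.6%, against 6.65%, 3.86% and 3.91% of all genes). In limma these were Vangl2 for LDL against Control (log2 difference 0.30, unadjusted p = 0.0481), and Prickle1 (-0.36, 0.0357) and Daam1 (0.19, 0.0463) for oxLDL against LDL. Groups did not overlap for 1, 1 and 3 of the 7, or 14.3%, 14.3% and 42.9%, against 10.7%, 7.33% and 8.31% of all genes. Vangl1 and Daam1 were at 22.4 to 30.7 TPM and 23 to 30 TPM, and Prickle2 at 6.92 to 10.1 TPM. Lgr6, Tnks2, Dvl2, Nkd1, Vangl2 and Prickle1 were chosen to be named after their values were seen. Wnt3a and Dkk1 were also named outside the naming rule given below, with their values known.

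Over all lists 106 genes were counted, 96 of them beside the 10. Of these 96, 67 were tested, and 0 passed in any comparison with or without the block. At an unadjusted p under 0.05 there were 5, 1 and 6 of the 67, or 7.46%, 1.49% and 8.96%, against 6.65%, 3.86% and 3.91% of all genes. Groups that did not overlap were seen for 7, 5 and 6, or 10.4%, 7.46% and 8.96% against 10.7%, 7.33% and 8.31% of all genes. Their median log2 differences were 0.02, 0.04 and 0.02.

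Some of the 10 genes differed more by replicate number than by treatment. The labels do not say what the number stands for. The replicate number accounted for 92.8% of the variance of log2(TPM + 1) over the 9 libraries for Dkk2, 82.2% for Sfrp2, 69.3% for Ctnnb1 and 60.4% for Wnt5b, against a median of 44.2% over all genes tested. Treatment accounted for 0.774%, 10.1%, 26.2% and 2.58% of it for the same genes, against a median of 16.9%. Fzd2 had the opposite pattern, with 77.1% by treatment and 9.32% by number, and Fzd1 had 45.3% and 6.1%.

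Averaged over the 3 treatments, Sfrp2 was at 748 TPM in the samples numbered 2 and at 426 and 427 TPM in those numbered 1 and 3, while Dkk2 was at 0.82 TPM against 2.22 and 1.66 TPM. Over the 9 libraries the 2 genes had a Pearson correlation of -0.88, and Wnt5b and Sfrp2 one of 0.84. These points share libraries and replicate numbers, and the values are descriptions. The 8 macrophage and leukocyte markers summed to 102 to 231 TPM in the samples numbered 2 and to 457 to 742 TPM in the 6 others. Lyz2 made up 69.6 to 76.7% of this sum. Each of the 8 markers was lowest in the sample numbered 2 of every treatment. By treatment the sum ranged from 229 to 485 TPM in Control, 231 to 742 TPM with LDL and 102 to 742 TPM with oxLDL. The 8 endothelial markers summed to 289.6 to 326 TPM in the samples numbered 1 and to 127 to 197 TPM in the others, and 0 of either list was at 0 in any library. The part of these cell markers in the levels of Sfrp2, Dkk2 and Wnt5b was not tested.

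**Figure D5:**
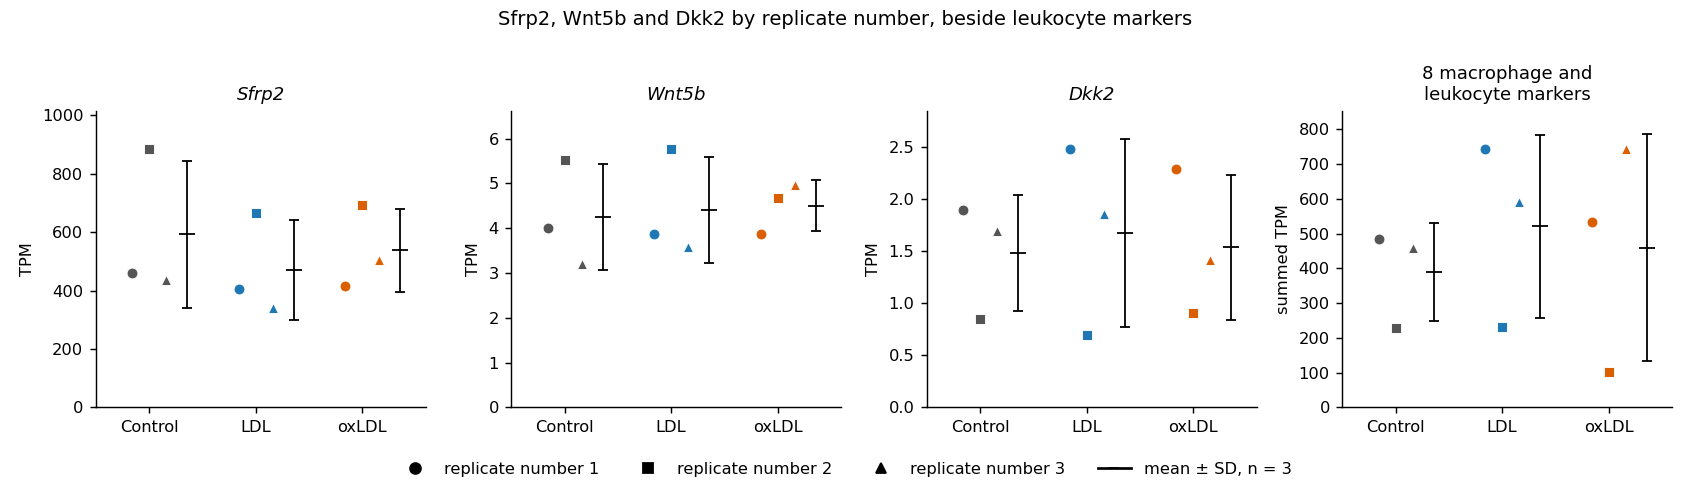
TPM of Sfrp2, Wnt5b and Dkk2 and the summed TPM of 8 macrophage and leukocyte markers (vertical axes from 0) in each library by treatment, with the replicate number as the symbol and the mean ± SD of n = 3 beside the points. Within every treatment the square (number 2) is the highest for Sfrp2 and the lowest for Dkk2 and for the marker sum, and for Wnt5b it is the highest in Control and LDL only. Lyz2 made up 69.6 to 76.7% of the marker sum.

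Likeness was ranked among 8789 genes whose mean reached 10 TPM, and symbols of clone-named gene models and pseudogenes were then passed over. The remaining genes whose log2(TPM + 1) followed Axin2 most closely over the 9 libraries were Mgat1 (Pearson correlation 0.90), Ripk2 (0.89) and Pex5 (0.88). Those closest to Ctnnb1 were Pkia (0.94), Imp3 (0.93) and Mcfd2 (0.93). Among the 10 genes themselves Wnt5a and Fzd1 had a correlation of 0.83 and Dkk3 and Fzd1 one of 0.80. With 9 libraries that share replicate numbers, these are descriptions of likeness only.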

How the data were processed

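Libraries of amplified cDNA from 50 ng total RNA were made with a TruSeq RNA v2 kit, which keeps no strand, and read in 100 bp pairs, per the labels' protocols. The authors deposited TPM values, 1 column for each of the 9 libraries. The submitters' processing notes name STAR, RSEM 1.3.1 and mm10. For the gene annotation they name no release. TPM keeps no depth, so no counting interval is given.

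Values were analysed as log2(TPM + 1) for 13495 genes (mean TPM over all libraries 1 or more). Tests used limma 3.58.1 in R 4.3.3 (eBayes, trend on). They were two-sided, p-values were adjusted by Benjamini-Hochberg across every gene tested, and the threshold was 0.05. All 9 libraries shared one spread (6 residual degrees of freedom). Adjusted and unadjusted p-values of single genes are limma's. They and the counts made from them come from the fit without the replicate block unless the block is named. An exact permutation of 3 against 3 samples cannot go below 0.1 and was not run. The fit was tested on simulated data. Replicate numbers come from the titles, and the correlations in the report pair the samples, so an alternative fit took the number as a block, leaving 4 residual degrees of freedom. The other alternatives were pseudocount, filter, scaling, prior, the 6 compared libraries alone and leaving out each library.

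The 10 genes and the gene lists were chosen with earlier results of these data known. Named by rule were the 10 genes, the 3 most abundant others of each list, any gene that passed and the 3 genes most like Axin2 and Ctnnb1. Among the like genes, clone-named gene models and pseudogenes were passed over. Positions are from GENCODE M21 (GRCm38).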

Additional observations from a re-analysis of the deposited data

How the results depend on the processing

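None of the 10 genes passed in limma in any comparison under any of the 18 alternatives, where a mean of at least 5 TPM left Axin2, Wnt5b and Dkk2 untested. Of 30 differences (10 genes in 3 comparisons), 13 kept their direction throughout and 17 changed it when 1 library was left out. No other alternative changed a direction. The cause was not tested.

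The differences that changed direction ran, over the 9 fits leaving out 1 library, as follows. For LDL against Control they were -0.14 to 0.37 for Dkk2, -0.26 to 0.026 for Sfrp1, -0.60 to 0.0087 for Sfrp2 and -0.13 to 0.21 for Wnt5b. For oxLDL against Control they were -0.10 to 0.17 for Axin2, -0.091 to 0.015 for Ctnnb1, -0.18 to 0.21 for Dkk2, -0.27 to 0.40 for Dkk3, -0.18 to 0.12 for Fzd1, -0.29 to 0.23 for Sfrp2, -0.095 to 0.19 for Wnt5a and -0.060 to 0.26 for Wnt5b. For oxLDL against LDL they were -0.35 to 0.17 for Dkk2, -0.095 to 0.00396 for Fzd2, -0.18 to 0.046 for Sfrp1, -0.28 to 0.0015 for Wnt5a and -0.064 to 0.22 for Wnt5b.

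The 13 that kept their direction also moved in size when 1 library was left out. For LDL against Control they ran -0.38 to -0.11 for Axin2, 0.0074 to 0.14 for Ctnnb1, 0.47 to 0.65 for Dkk3, 0.25 to 0.52 for Fzd1, -0.33 to -0.23 for Fzd2 and 0.077 to 0.32 for Wnt5a. For oxLDL against Control they ran -0.37 to -0.26 for Fzd2 and -0.34 to -0.048 for Sfrp1. For oxLDL against LDL they ran 0.19 to 0.34 for Axin2, -0.18 to -0.058 for Ctnnb1, -0.85 to -0.18 for Dkk3, -0.57 to -0.29 for Fzd1 and 0.022 to 0.50 for Sfrp2.

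Counts of all genes called, which set the background, were 45, 2 and 14 in the 3 comparisons. With the replicate block they were 115, 17 and 35, with no filter 19, 10 and 8, and with only the 6 libraries compared 9, 1 and 6. The prior without the trend gave 1 for oxLDL against Control and 8 for oxLDL against LDL, and a pseudocount of 5 gave 1 for oxLDL against Control. Leaving out 1 library gave 4 to 38, 1 to 3 and 1 to 13. The replicate block changed no call of the 10 genes. Depth is unknown, so the reads behind the low values of Dkk2, Axin2 and Wnt5b are unknown too.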
